A study of Mus musculus with 3 samples.

Results

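Protein kinase C enzymes are serine and threonine kinases that act downstream of phospholipase C, which releases diacylglycerol and inositol trisphosphate when receptors coupled to Gq are engaged. The conventional enzymes need calcium and diacylglycerol, a further class needs diacylglycerol but not calcium, and the atypical enzymes respond to neither and work in cell polarity complexes. In neurons these kinases act on channels, receptors and the release machinery, and Prkcd is a common marker for relay neurons of the thalamus.

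Transcripts of 8 protein kinase C genes, chosen by name as members of the family, were described among the 32285 genes of the count table. They were the conventional Prkca and Prkcb, the calcium-independent Prkcd, Prkcq, Prkce and Prkch, and the atypical Prkci and Prkcz. Nuclei carrying KASH-GFP, in which a KASH domain anchors green fluorescent protein to the outer nuclear membrane, were sorted from tissue cut as the lateral habenula (LHb) out of coronal slices 1250 µm thick. The sorted nuclei are labelled KASH-GFP+ BNST LHb neurons, and BNST stands for a forebrain region, the bed nucleus of stria terminalis. The groups were mothers (sexually experienced females), virgin males and virgin females, each with 3 mice pooled into 1 library. The sources used here do not give strain, age or how the fluorescent protein reached the neurons. With 1 library per group there is no test between groups, and mouse-to-mouse variation was not measured.

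Of 603 nuclei, the authors annotated 592 as neurons, and these are described by the authors' clusters 0 to 4, which held 172, 157, 97, 91 and 75 nuclei. Neuronal nuclei numbered 201 in mothers, 204 in virgin males and 187 in virgin females, and no cell barcode was shared between libraries. The libraries held 2691639 neuronal UMIs (unique molecular identifiers, 1 for each transcript captured) in mothers, 2122919 in virgin males and 2718356 in virgin females, and the median neuronal nucleus 11898, 9414 and 13181. Median UMIs per nucleus in clusters 0 to 4 were 11465, 9894, 12639, 15007 and 9431. Levels are CPM, a gene's UMIs over all neuronal UMIs of the same nuclei scaled to 1000000. Bracketed ranges are exact 95% intervals that cover counting error only. The LHb label held in part against marker genes. Thalamic markers (Lef1, Rora, Ntng1, Gbx2, Plekhg1 and Tcf7l2) summed to 7864, 2360, 8911, 11073 and 1569 CPM in clusters 0 to 4, and LHb markers (Chrm3, Gap43, Gpr151, Htr2c, Pcdh10 and Pou4f1) to 899, 1893, 1116, 1173 and 1760. The defining habenular transcription factor gene Pou4f1, with 55 neuronal UMIs in all, gave no UMI in clusters 0, 2 and 3. Pcdh10 and Chrm3 were also highest in clusters 1 and 4, but the other LHb markers differed. Gap43 was highest in cluster 0 at 231 CPM, and Gpr151 stood at 11.6 CPM there and 14.8 in cluster 1. Htr2c stood at 403 and 444 CPM in clusters 0 and 2 against 245 in cluster 4. The clusters are therefore called by number here. Choroid plexus or ependymal markers stood at 426 CPM in cluster 1 and at 1.47 to 4.07 CPM in the others, almost all of it from 5 nuclei of virgin males with 10 or more UMIs of Ttr.

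Prkcd and Prkcq were the genes of the family with the steepest differences between clusters, and the bases before their starts are shown since their transcripts hardly met in the same nucleus. The sequences are from RefSeq on GRCm38.p6, 5′ to 3′ and ending at the base before the annotated start. They lie at chr14:30626209-30626458 on the minus strand for Prkcd and at chr2:11172132-11172381 on the plus strand for Prkcq. The gene spans given further on are from GENCODE and reach upstream of the RefSeq start shown for both genes. The RefSeq gene spans reach further upstream. That of Prkcq begins at 11171905, so all of the bases shown for it lie within the annotated gene. That of Prkcd reaches 30626414, so most of the bases shown for it, with the match below, lie within the annotated gene. Capitals mark a match to TCAAAG, the core that TCF and LEF factors bind.
Prkcd: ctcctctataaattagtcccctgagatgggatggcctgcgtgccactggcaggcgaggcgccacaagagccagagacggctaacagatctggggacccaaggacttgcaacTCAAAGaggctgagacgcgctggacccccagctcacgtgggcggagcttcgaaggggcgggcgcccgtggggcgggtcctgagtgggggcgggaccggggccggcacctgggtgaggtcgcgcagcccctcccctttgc
Prkcq: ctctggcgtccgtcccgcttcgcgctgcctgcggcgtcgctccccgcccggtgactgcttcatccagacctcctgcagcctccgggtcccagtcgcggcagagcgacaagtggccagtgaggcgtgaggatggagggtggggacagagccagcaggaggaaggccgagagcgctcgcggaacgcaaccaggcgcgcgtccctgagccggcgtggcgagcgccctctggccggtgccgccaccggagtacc
The Prkcd sequence had 1 match, 139 bases before the start, and that of Prkcq had none. Of 32851 mouse promoters of the same length, 13.8% hold TCAAAG on either strand. The core of SOX factors, ACAATG, was in neither sequence and is in 10.7% of promoters. G and C made up 67.6% of the Prkcd sequence, with 18 CpG, and 72.4% of the Prkcq sequence, with 30 CpG, against a median of 52.4% over all promoters. Such matches describe the letters and are not binding sites. Promoters of 6 of the 8 genes were found in the RefSeq table, which lists a second start for Prkcd at chr14:30610311-30610560. The bases before that second start held no match to either core, with 50.8% G and C and 1 CpG.

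The conventional genes were both highest in cluster 1. Prkca, on chromosome 11 (107933387 to 108343928, GRCm38, minus strand), encodes the kinase best known for long-term depression in cerebellar Purkinje cells. It stood at 107 CPM [92.4, 124] in cluster 1, with 108 CPM in mothers, 113 in virgin males and 104 in virgin females. Cluster 4 came next at 72.1 CPM [54.5, 93.7], and clusters 0, 2 and 3 followed at 42.5, 32.3 and 29.8. The 3 libraries of cluster 1 lay above those of cluster 4, which ran from 61.9 to 94.3, and these above those of cluster 0, which ran from 34.6 to 52.7. The libraries of cluster 2 overlapped with those of cluster 0 and of cluster 3, while those of cluster 3 (26.2 to 32.3) lay below those of cluster 0. Against the other 4 clusters together, cluster 1 was 2.63-fold higher [2.16, 3.19], a log2 fold of 1.39 that became 0.91 (under 2-fold) with every nucleus thinned to 3000 UMIs. Because the clusters were made from these same counts, such folds describe the clusters and test nothing.

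Prkcb, on chromosome 7 (122288751 to 122634402, plus strand), encodes the kinase that the brain makes in a pair of splice forms and that has been tied to fear learning in mice. Cluster 1 held 460 CPM [428, 492] and cluster 4 held 376 [334, 422]. Clusters 3 and 2 were close at 282 and 276 CPM, and cluster 0 was lowest at 203 [185, 223]. Each neighbour in this order overlapped with the next over the 3 libraries. Cluster 1 held 336 CPM in mothers, 490 in virgin males and 508 in virgin females, so its lead rested on the virgin libraries, while cluster 4 held 413, 369 and 304. In mothers cluster 4 was thus above cluster 1. The fold of cluster 1 over the other 4 was 1.74 [1.60, 1.90], a log2 fold of 0.80, and without the library of mothers it passed 2-fold at 1.09.

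Prkcd, on chromosome 14 (30595354 to 30626210, minus strand), was concentrated in cluster 3 and, at a lower level, in cluster 2. Cluster 3 held 536 CPM [499, 575], with 611 CPM in mothers, 427 in virgin males and 596 in virgin females. Cluster 2 held 189 CPM [166, 213], with 193, 202 and 175 CPM in the same libraries. All 3 libraries of cluster 3 lay above all of cluster 2, and these above clusters 0, 1 and 4, where no library exceeded 21.1 CPM. Of all Prkcd UMIs, 72.2% fell in cluster 3 and 23.5% in cluster 2. Cluster 3 stood 10.7-fold [9.34, 12.2] over the other 4.

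In cluster 3 a Prkcd UMI was seen in 87 of 91 nuclei (95.6% [89.1, 98.8]) and in cluster 2 in 70 of 97 (72.2% [62.1, 80.8]). Clusters 0, 1 and 4 had shares of 10.5% [6.32, 16.0], 3.82% and 1.33% [0.0338, 7.21]. The clusters with small shares had median depths of 9431 to 11465 UMIs, against 15007 in cluster 3. With every nucleus thinned to 3000 UMIs, the shares in clusters 0 to 3 were 1.20%, 1.41%, 37.9% and 73.6%, and cluster 4 had 0 of 74 nuclei [0, 4.86], so the order of clusters 3 and 2 above the rest stayed at equal depth. The thinning left out 8 nuclei of mothers, 9 of virgin males and 7 of virgin females. By cluster these were 6, 15, 2, 0 and 1 nuclei in clusters 0 to 4, so cluster 1 kept 142 of its 157 nuclei. The median nucleus of cluster 3 had 7 Prkcd UMIs and that of cluster 2 had 2, with maxima of 27 and 14. In cluster 2, 27 nuclei had none, 34 had 1 to 2 UMIs, 32 had 3 to 9 and 4 had 10 or more, so that cluster spanned nuclei with no detected Prkcd and nuclei at the level of cluster 3. Lef1, a transcription factor that binds the TCF/LEF core and is a thalamic marker, stood at 234, 40.5, 582, 727 and 16.7 CPM in clusters 0 to 4. Tcf7l2, a TCF factor among the same markers, stood at 788, 316, 834, 968 and 116 CPM. It was thus also high in cluster 0, where Prkcd was 13.4 CPM. Whether either factor acts on Prkcd was not tested. Prkcd is also a marker of GABAergic neurons of the central amygdala, and the GABAergic genes Gad1, Gad2 and Slc32a1 together gave no UMI in clusters 2 and 3.

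**Figure D1:**
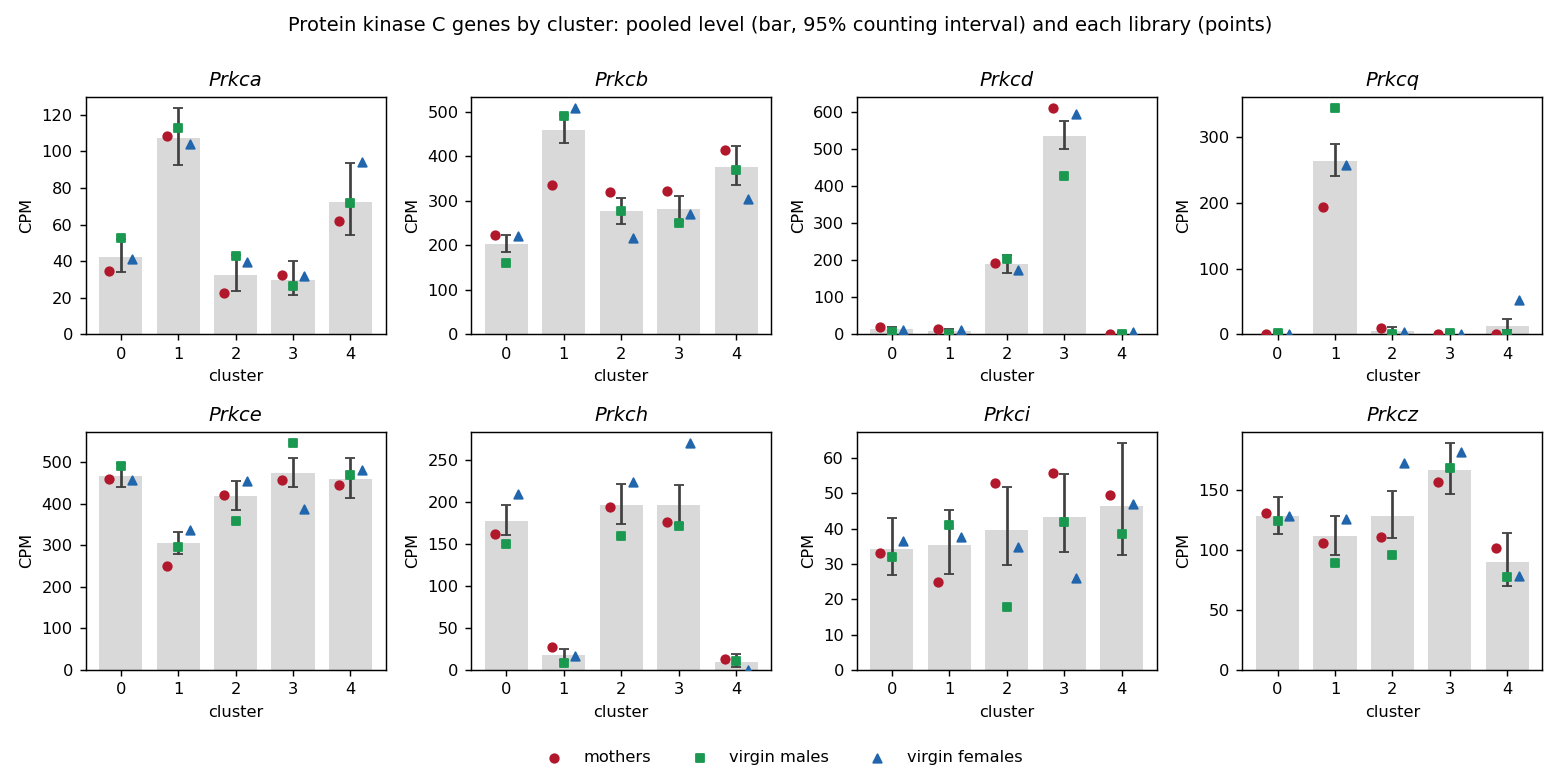
Level of each of the 8 genes in clusters 0 to 4. Grey bars are CPM over all neuronal nuclei of a cluster with exact 95% counting intervals, and points are mothers (circles), virgin males (squares) and virgin females (triangles). Prkcd peaks in cluster 3 at 536 CPM, Prkcq in cluster 1 at 264 CPM, Prkch is near 0 in clusters 1 and 4, and the libraries of Prkci overlap between clusters next to each other in level. Each panel has its own axis.

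Prkcq, on chromosome 2 (11172108 to 11301222, plus strand), encodes the kinase known from T cell receptor signalling. Its UMIs lay almost wholly in cluster 1, which held 463 of 484, or 95.7%. The level there was 264 CPM [241, 289], with 194 CPM in mothers, 344 in virgin males and 257 in virgin females. Clusters 0, 2, 3 and 4 stood at 0.924, 5.87, 0.678 and 12.9 CPM. The value of cluster 4 came from 10 UMIs in 2 nuclei of virgin females, with none in mothers or virgin males. Cluster 1 was 72.7-fold [47.0, 119] over the other 4, and its 3 libraries lay above every library of the other clusters. On the log2 scale this fold was 6.18, and it was 5.01 in nuclei thinned to 3000 UMIs, 7.05 without the library of virgin females and 7.32 without the richest nucleus of each cluster. No T cell marker (Cd3e, Cd3d, Ptprc and Cd2) gave a UMI in cluster 1.

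Not all nuclei of cluster 1 held a Prkcq UMI. It was seen in 79 of 157 (50.3% [42.2, 58.4]) at a median depth of 9894 UMIs, against 1 of 91 (1.10% [0.0278, 5.97]) in cluster 3 at 15007. After thinning to 3000 UMIs the share was 34.5% in cluster 1 and at most 2.70% in any other cluster. The distribution was long-tailed, with 28 nuclei at 1 to 2 UMIs, 36 at 3 to 9, 15 at 10 or more and a maximum of 34. The richest 16 nuclei gave 50.3% of the cluster's Prkcq UMIs. By library, a UMI was seen in 18 of 39 nuclei of cluster 1 in mothers, 31 of 53 in virgin males and 30 of 65 in virgin females.

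Nuclei of cluster 1 with a Prkcq UMI were deeper, with a median of 12515 UMIs against 7606 in the 78 without, so detection and depth move together. The division rests on the gene's own detection and carries no test, and the genes below stand outside the naming rule. Other genes in this cluster differed to varying degrees on the CPM scale, which divides by depth. Sox6, a transcription factor, stood at 369 CPM [334, 407] with and 81.1 [61.1, 106] without a Prkcq UMI, and Man1a, a Golgi mannosidase, at 445 and 159. Htr2c, a serotonin receptor, ran the other way, with 551 CPM [508, 598] with and 1007 [933, 1085] without, as did Nwd2 with 274 and 566. The neuronal marker Slc17a6 stood at 318 CPM with and 224 without, Gap43 at 179 and 158, and Pou4f1 at 23.3 and 35.4. Gad1 and Slc32a1, which mark GABAergic neurons, gave no UMI in nuclei with Prkcq and 20 and 16 in those without. Gad2, the third gene of that marker list, was seen in both, with 13 UMIs in 5 nuclei with Prkcq and 51 UMIs in 12 nuclei without. Among the other kinases Prkca was 89.3 CPM [72.3, 109] with and 136 [109, 166] without, and Prkcb was 483 and 423. Cluster 1 carries 2 labels of a deposited subtype scheme, and Prkcq stood at close levels in both. Nuclei labelled LHb4 held 272 CPM and those labelled LHb2 held 259, a ratio of 1.05 [0.868, 1.27].

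**Figure D2:**
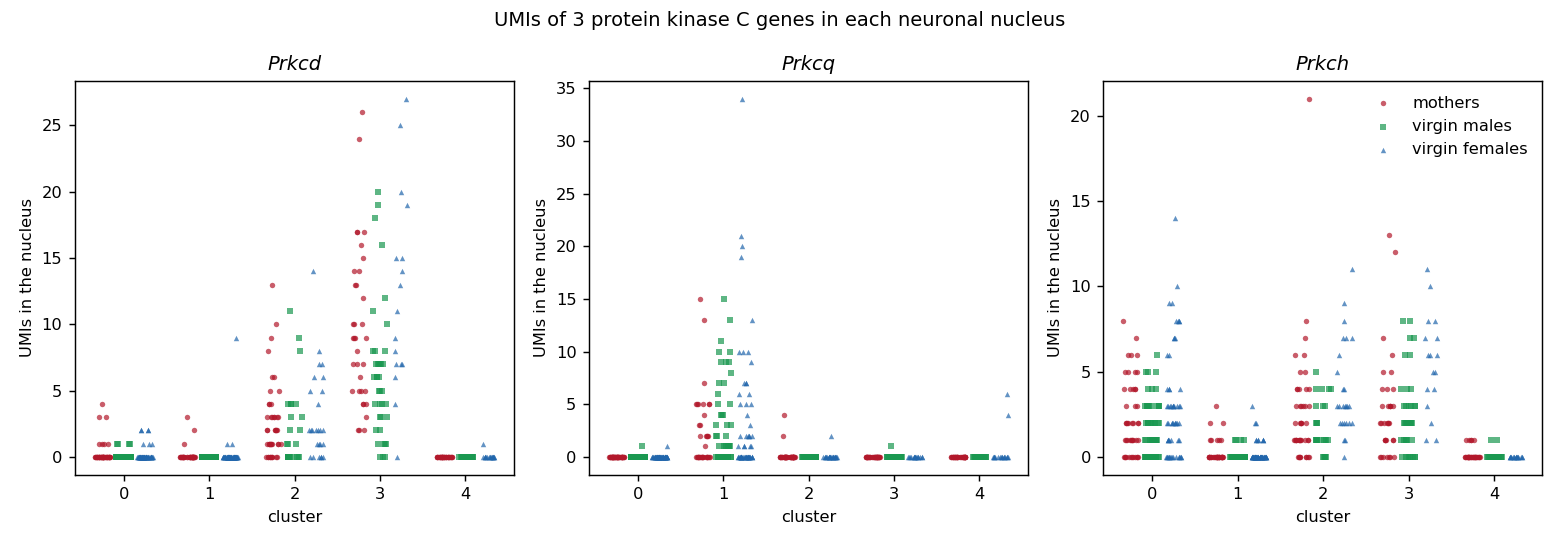
UMIs of Prkcd, Prkcq and Prkch in each of the 592 neuronal nuclei, by cluster, with points side by side for mothers, virgin males and virgin females. Prkcd reaches 27 UMIs in cluster 3, Prkcq reaches 34 in cluster 1, where 78 of 157 nuclei lie at 0, and Prkch is spread over clusters 0, 2 and 3. UMIs are not divided by depth, which differs between nuclei.

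Prkcd and Prkcq were seldom seen in the same nucleus. Either was detected in 263 of 592 neuronal nuclei and both in 6, of which 3 were in cluster 1, 2 in cluster 2 and 1 in cluster 3. Prkcd met Prkch more often, with both in 151 nuclei, of which 72 were in cluster 3 and 60 in cluster 2. These counts follow from the clusters in which each gene is high, and detection depends on depth.

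Prkch, on chromosome 12 (73584796 to 73778185, plus strand), encodes a kinase known from epithelial differentiation. It was found in clusters 0, 2 and 3 at 178 CPM [161, 197], 197 [174, 222] and 196 [175, 220], whose libraries overlapped. In clusters 1 and 4 it stood at 17.1 CPM [11.5, 24.4] and 9.01 [3.62, 18.6]. Every library of clusters 0, 2 and 3 was at 150 CPM or more, and every library of clusters 1 and 4 at 27.0 or less. A UMI was seen in 69.8%, 84.5% and 83.5% of nuclei of clusters 0, 2 and 3, and in 14.0% and 9.33% of clusters 1 and 4. At 3000 UMIs per nucleus these were 34.9%, 38.9% and 39.6% against 4.23% and 2.70%. Clusters 0, 2 and 3 together stood 12.9-fold [9.29, 18.4] over clusters 1 and 4, a split that was chosen after the values were seen and that also divides the thalamic marker sum. Unlike Prkcd, Prkch included cluster 0, where Prkcd was 13.4 CPM.

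Prkce, on chromosome 17 (86167785 to 86657919, plus strand), encodes a kinase tied to ethanol responses and pain sensitisation in mice. It was detected in 81.5% to 100% of nuclei in every cluster and varied little. Clusters 0, 2, 3 and 4 held 468, 420, 475 and 460 CPM. Neighbours in level overlapped over the libraries, although every library of cluster 0 (458 to 490) lay above every library of cluster 2 (359 to 454). Cluster 1 was lower at 304 CPM [279, 331], with 250 CPM in mothers, 297 in virgin males and 337 in virgin females, all below the lowest library of cluster 2 at 359. The ratio of cluster 3 to cluster 1 was 1.56 [1.39, 1.75].

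Of the 8 genes, Prkci of the atypical class differed least between clusters over all UMIs. Prkci, on chromosome 3 (30995747 to 31052959, plus strand), encodes the kinase of the Par polarity complex. It ran from 34.2 CPM [26.9, 42.9] in cluster 0 to 46.4 [32.5, 64.2] in cluster 4, and every neighbour overlapped, although the libraries of cluster 4 (38.6 to 49.5) lay above those of cluster 0 (31.9 to 36.6). After thinning to 3000 UMIs the order was another, with cluster 3 highest at 91.6 CPM from 25 UMIs and cluster 0 lowest at 26.1 from 13. Prkcz, on chromosome 4 (155260129 to 155361361, minus strand), also gives rise in brain to PKMζ, a short form without the regulatory part that has been studied in memory. Prkcz was highest in cluster 3 at 167 CPM [146, 189] and lowest in cluster 4 at 90.1 [70.3, 114], with clusters 0, 1 and 2 at 128, 111 and 128. The libraries of neighbouring clusters overlapped, though all of cluster 3 (156 to 181) lay above all of cluster 4 (77.1 to 101). Counts per gene do not tell the full-length transcript from that of PKMζ. Gm27200 lies antisense within Prkcz and had 169 neuronal UMIs, at 16.7 to 24.9 CPM in the clusters. The count table lists the pair as separate genes. The sources used here do not name the strand used in counting, so how well reads of the pair were separated is not known.

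Across the family, 3 of 8 genes (Prkca, Prkcd and Prkcq) were at least 2-fold higher in 1 cluster than in the other 4, against 17.6% of the 11467 genes with at least 50 neuronal UMIs. All 8 members passed that minimum. By cluster these were 2 in cluster 1 (Prkca and Prkcq), against 6.89% of all genes, and 1 in cluster 3 (Prkcd), against 3.02%. None was highest by 2-fold in clusters 0, 2 and 4, against 3.58%, 1.24% and 4.99%. With every nucleus thinned to 3000 UMIs the count was 4, namely Prkcd, Prkcq, Prkch in cluster 3 (2.004-fold) and Prkci in cluster 3 (2.79-fold, from 25 UMIs). The share over all genes was not recounted after thinning. A ratio of at least 3 between the highest and the lowest cluster was reached by 4 of 8, with Prkch the addition, against 23.3% of all genes. Clusters 0, 2 and 3 were at least 2-fold over clusters 1 and 4 for Prkcd (30.3-fold [19.1, 51.3]) and Prkch, a direction shared by 7.29% of all genes. They were at least 2-fold under them for Prkca (0.373-fold [0.306, 0.454]) and Prkcq (0.0118-fold [0.00583, 0.0212]), as were 7.95% of all genes. With 8 members these shares are not set against the background by a test. Prkcb leaned towards clusters 1 and 4 (0.568-fold [0.523, 0.616]), while Prkce (1.30-fold), Prkcz (1.33-fold) and Prkci (0.991-fold) lay near evenness. The median log2 fold over all genes was 0.12 for cluster 1 over the others, −0.18 for cluster 3 and between −0.08 and 0.06 for the rest.

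The genes whose levels followed each kinase most closely were found by Pearson's r of log2(CPM + 1) over the 15 combinations of cluster and library, among 9110 genes with at least 100 UMIs. These points share libraries and clusters, so r is a description. For Prkch they were Gabra4, a GABA-A receptor subunit gene (r = 0.980), 4921524J17Rik (r = 0.980) and Rnf220, an E3 ubiquitin ligase (r = 0.974). Gabra4 stood at 317, 37.6, 477, 507 and 29.6 CPM in clusters 0 to 4. For Prkcd they were Prkg2, a cyclic GMP dependent kinase (r = 0.965), Ajap1 (r = 0.959) and Kctd17 (r = 0.956). Prkg2 stood at 43.9, 24.5, 138, 140 and 18.0 CPM, a flatter profile than that of Prkcd.

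For Prkca the closest were Tbc1d9 (r = 0.944), the protocadherin Pcdh11x (r = 0.939) and the orphan receptor Gpr149 (r = 0.939). Pcdh11x stood at 62.9, 470, 52.1, 25.7 and 258 CPM, so it too was high in clusters 1 and 4. For Prkcq they were D7Ertd443e (r = 0.928), Cox7b, a subunit of cytochrome c oxidase (r = 0.892), and Gm11418 (r = 0.884). D7Ertd443e stood at 0.924, 54.7, 0.734, 0 and 7.73 CPM. Among the members themselves r was highest between Prkch and Prkcz (0.760) and lowest between Prkca and Prkch (−0.815).

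Mothers and the virgin groups were compared over all neuronal nuclei, where a difference in the mix of clusters and a difference within nuclei both change a level. Prkcd and Prkcq were the members past 1.5-fold between mothers and virgin females. They make 2 of 8, against 7.49% of 10388 genes with at least 50 UMIs in the pair. Prkcd stood at 178 CPM [163, 195] in mothers, 144 [128, 161] in virgin males and 114 [102, 127] in virgin females. The library of mothers was highest and that of virgin females lowest, at a ratio of 1.56 [1.35, 1.81]. Cluster 3, where the gene is high, held 17.4%, 19.1% and 9.09% of neuronal nuclei in the same order, so virgin males had the largest share there. Cluster 2, which held the next largest part of Prkcd UMIs, had 22.9% of nuclei in mothers, 12.3% in virgin males and 13.9% in virgin females. Such shares describe the 3 libraries and were not tested.

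Prkcq stood at 34.2 CPM [27.6, 41.9] in mothers, 75.8 [64.6, 88.5] in virgin males and 85.0 [74.4, 96.7] in virgin females. Mothers were lower than both virgin groups, by a ratio of 0.402 [0.312, 0.514] to virgin females and 0.451 [0.345, 0.586] to virgin males. Cluster 1 held 19.4%, 26.0% and 34.8% of the nuclei in mothers, virgin males and virgin females. Prkcq was 1 of 8 members past 1.5-fold between mothers and virgin males, against 7.27% of all genes. Between virgin males and virgin females 0 of 8 passed, against 7.56% of all genes. The nearest was Prkch at 0.790 [0.670, 0.929].

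With all libraries set to the same mix of clusters, 0 of 8 members were past 1.5-fold between mothers and virgin females. The log2 ratio of Prkcd was then 0.07 in place of 0.65, and that of Prkcq −0.50 in place of −1.31. Between mothers and virgin males Prkcq stayed past 1.5-fold, with a log2 ratio of −0.79 in place of −1.15. Between virgin males and virgin females the log2 ratio of Prkcd was −0.35 at the same mix, 0.33 as measured and 0.73, past 1.5-fold, in thinned nuclei. The other 6 genes lay between 0.756-fold and 1.23-fold in all 3 comparisons before the mix was set equal. Prkce was the most even, at 414 CPM in mothers, 444 in virgin males and 412 in virgin females.

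**Figure D3:**
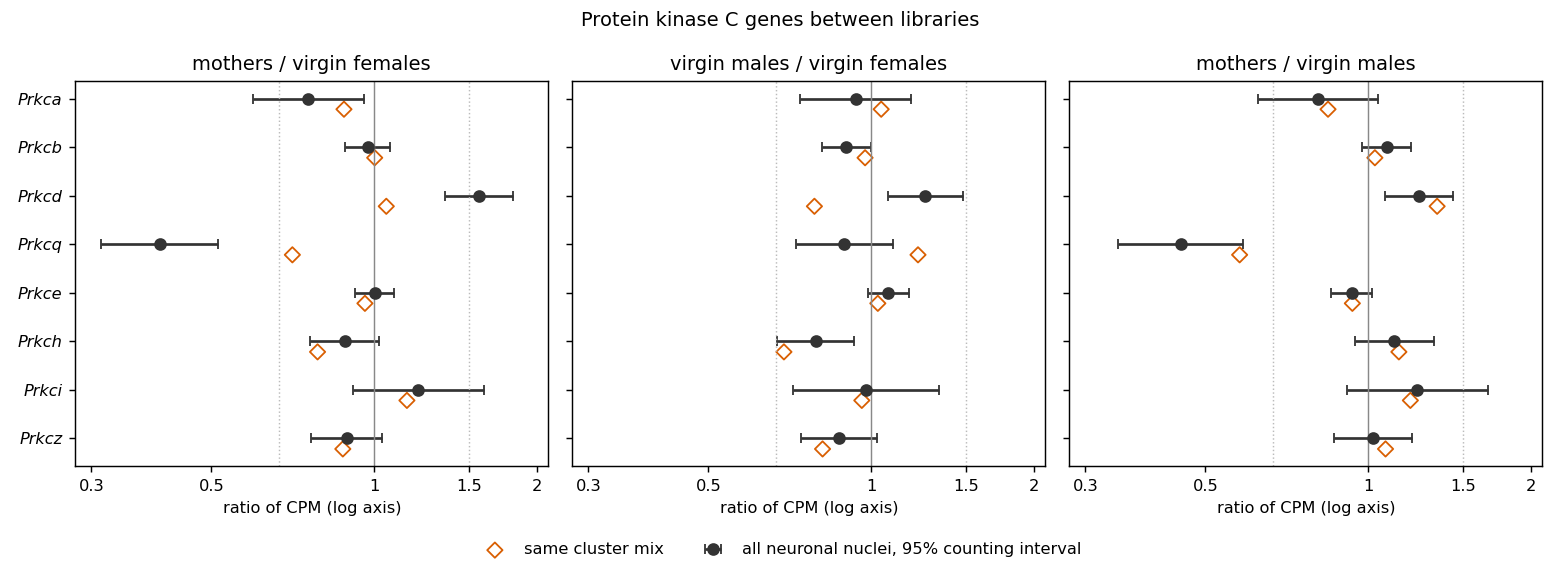
Ratio of CPM between libraries for each of the 8 genes, for mothers over virgin females, virgin males over virgin females and mothers over virgin males, on a log axis. Filled circles are all neuronal nuclei with exact 95% counting intervals, open diamonds the ratio at the same mix of clusters, and dotted lines mark 1.5-fold. Prkcd at 1.56 and Prkcq at 0.402 are past the line for mothers over virgin females, and their diamonds are inside it.

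Within clusters, Prkcd of cluster 3 was similar in mothers and virgin females, at 611 and 596 CPM (ratio 1.03 [0.860, 1.22]). Virgin males held 427 CPM there, a ratio of 0.717 [0.593, 0.867] to virgin females. The ratio of mothers over virgin males was 1.43 [1.21, 1.69]. After thinning the log2 ratio of mothers over virgin females was 0.54 in place of 0.04, and that of virgin males over virgin females was 0.24 in place of −0.48. Prkcd in cluster 2 was 193 CPM in mothers, 202 in virgin males and 175 in virgin females, with all 3 ratios holding 1 in their intervals. Prkcq of cluster 1 was 194 CPM in mothers and 344 in virgin males, a ratio of 0.562 [0.427, 0.736]. Against the 257 CPM of virgin females the ratio of mothers was 0.754 [0.580, 0.972]. The 5 virgin male nuclei rich in Ttr are in this cluster, and without them virgin males held 341 CPM in 48 nuclei, a ratio of 0.568 [0.430, 0.745].

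The library of virgin females had the highest Prkch level in clusters 0, 2 and 3, by differences that were partly within counting error. Cluster 0 held 163 CPM in mothers, 150 in virgin males and 210 in virgin females. Cluster 2 held 194, 160 and 225 CPM, and cluster 3 held 176, 171 and 270. Ratios to virgin females in cluster 3 were 0.651 [0.485, 0.873] for mothers and 0.634 [0.473, 0.850] for virgin males. In cluster 0 they were 0.776 [0.606, 0.990] and 0.716 [0.552, 0.923] in the same order, and in cluster 2, where both intervals hold 1, 0.864 [0.659, 1.13] and 0.711 [0.489, 1.02]. All of these share the library of virgin females. In thinned nuclei the log2 ratio of mothers over virgin females in cluster 0 was −0.03 in place of −0.37, while in cluster 3 it was −0.95 in place of −0.62. Thinning left 78 Prkch UMIs in cluster 0 and 52 in cluster 3 over all libraries.

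Prkcb of cluster 1 was 336 CPM in mothers against 508 in virgin females (ratio 0.661 [0.545, 0.798]). This log2 ratio of −0.60 became −0.06 in thinned nuclei, which is no longer past 1.5-fold. In cluster 2 the order was the other way, with 319 CPM in mothers and 216 in virgin females (ratio 1.48 [1.16, 1.90]). The ratio over all nuclei was 0.973 [0.884, 1.07] as measured. Prkcz of cluster 2 was 111 CPM in mothers, 95.9 in virgin males and 172 in virgin females, with ratios of 0.642 [0.458, 0.899] and 0.556 [0.345, 0.871] to virgin females. On the log2 scale these are −0.64 and −0.85, and thinned nuclei gave −1.76 and −2.27. Thinning left 34 Prkcz UMIs in cluster 2 over all libraries, so the thinned ratios rest on few UMIs.

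With at least 50 UMIs in the pair, 24 combinations of member and cluster were measured in each comparison. Of these, 3 were past 1.5-fold for mothers over virgin females, 2 for virgin males over virgin females and 2 for mothers over virgin males (Prkcq in cluster 1 and Prkca in cluster 0, the second at 0.658-fold [0.369, 1.15]). Over all genes the share past 1.5-fold for mothers over virgin females was 11.5%, 14.3%, 13.2%, 12.5% and 15.6% within clusters 0 to 4. For virgin males over virgin females it was 11.5%, 10.9%, 14.3%, 13.6% and 13.5%, and for mothers over virgin males 11.6%, 13.4%, 14.4%, 14.8% and 14.3%. The counts of the members are near that background.

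Other genes of the pathway were taken from 8 lists of 83 genes, of which 61 had at least 50 neuronal UMIs. Of the 61, 16 were at least 2-fold higher in 1 cluster or more, against 17.6% of all genes. Taking clusters 0 to 4 one by one, 2, 7, 1, 3 and 7 genes were at least 2-fold higher, against 3.58%, 6.89%, 1.24%, 3.02% and 4.99% of all genes. The median log2 fold of the 61 lay between −0.15 in cluster 3 and 0.08 in cluster 4, close to the medians of all genes.

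Upstream of the kinases, 4 of 9 measured genes of Gq subunits and phospholipase C passed 2-fold, against 17.6% of all genes. Lists this short are not set against that share by a test. Plch1, a phospholipase C of the eta type, stood at 10.6, 82.7, 2.93, 17.6 and 108 CPM in clusters 0 to 4, or 3.69-fold [2.83, 4.79] in cluster 4. Its relative Plch2 was highest in cluster 3 at 100 CPM (2.54-fold [2.06, 3.13]) and lowest in cluster 4 at 14.2, so the pair ran in opposite clusters. Plcd4, a delta type enzyme, was highest in cluster 4 (2.29-fold [1.20, 4.10], from 72 UMIs in all clusters). Gnaq, the main Gq subunit gene, was level at 176 to 220 CPM. Plcb4, the phospholipase C of thalamic neurons, stood at 505, 184, 567, 730 and 327 CPM, under the 2-fold mark, and was named after its values were seen, as were Gnaq and, below, Itpr1, Dagla, Dgki and Rasgrp1.

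Diacylglycerol is removed by its kinases and lipases, of which 5 of 12 passed 2-fold, against 17.6% of all genes and likewise without a test. Dgkb, a diacylglycerol kinase of neurons, stood at 187, 423, 81.4, 59.6 and 1289 CPM, which put cluster 4 at 6.48-fold [5.96, 7.03] over the others. In cluster 4 it was 1136 CPM in mothers, 1884 in virgin males and 1047 in virgin females. Dgka was highest in cluster 1 (3.93-fold [2.67, 5.79]) at 35.4 CPM, with 32.2 in cluster 4. Dgkk was highest in cluster 1 as well (3.43-fold [1.90, 6.19], from 51 UMIs in all clusters). In that cluster it was 4.51 CPM in mothers, 36.8 in virgin males and 8.25 in virgin females, from 2, 17 and 7 UMIs. Dgki was highest in clusters 3 and 2, where Prkcd is high, at 687, 338, 1004, 1196 and 384 CPM, under the 2-fold mark. Dagla, which makes the endocannabinoid 2-arachidonoylglycerol, was highest in cluster 3 at 173 CPM (2.31-fold [1.97, 2.70]).

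Of other proteins that bind diacylglycerol, 5 of 11 passed 2-fold, against 17.6% of all genes and likewise without a test. Prkd1, a protein kinase D that protein kinase C activates, was highest in cluster 1 at 43.9 CPM, against 0 to 6.01 CPM elsewhere (12.7-fold [7.68, 21.9]). In cluster 1 it was 94.6 CPM in mothers, 39.0 in virgin males and 20.04 in virgin females, so mothers were the highest library here and the lowest for Prkcq. Of the 42 UMIs in mothers, 19 came from 1 of 12 nuclei with any, while no nucleus of the virgin groups held more than 3. Rasgrp2, an exchange factor for Rap, was also highest in cluster 1 (4.22-fold [2.94, 6.08]), and Chn2, a Rac GTPase activating protein, in cluster 0 (4.14-fold [3.57, 4.80]). Rasgrp1, a relative of Rasgrp2 that acts on Ras, passed 2-fold in cluster 3 (3.80-fold [3.21, 4.51]), at 181 CPM there, 128 in cluster 2 and 5.15 in cluster 4.

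The remaining lists were flatter, with the share over all genes again 17.6%. Among substrates and anchors 1 of 11 passed, Ppp1r14c, an inhibitor of protein phosphatase 1, in cluster 1 (2.12-fold [1.66, 2.70]). Among partners of the atypical enzymes 1 of 7 passed, Pard3b, a relative of the polarity protein Par3, in cluster 1 (7.45-fold [5.36, 10.5]). There it held 119 CPM in mothers, 86.7 in virgin males and 34.2 in virgin females. None of 8 genes for priming and dephosphorylation, none of 2 protein kinase N relatives and not the 1 measured IP3 receptor passed. That receptor, Itpr1, was 271, 77.0, 273, 301 and 140 CPM in clusters 0 to 4.

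**Figure D4:**
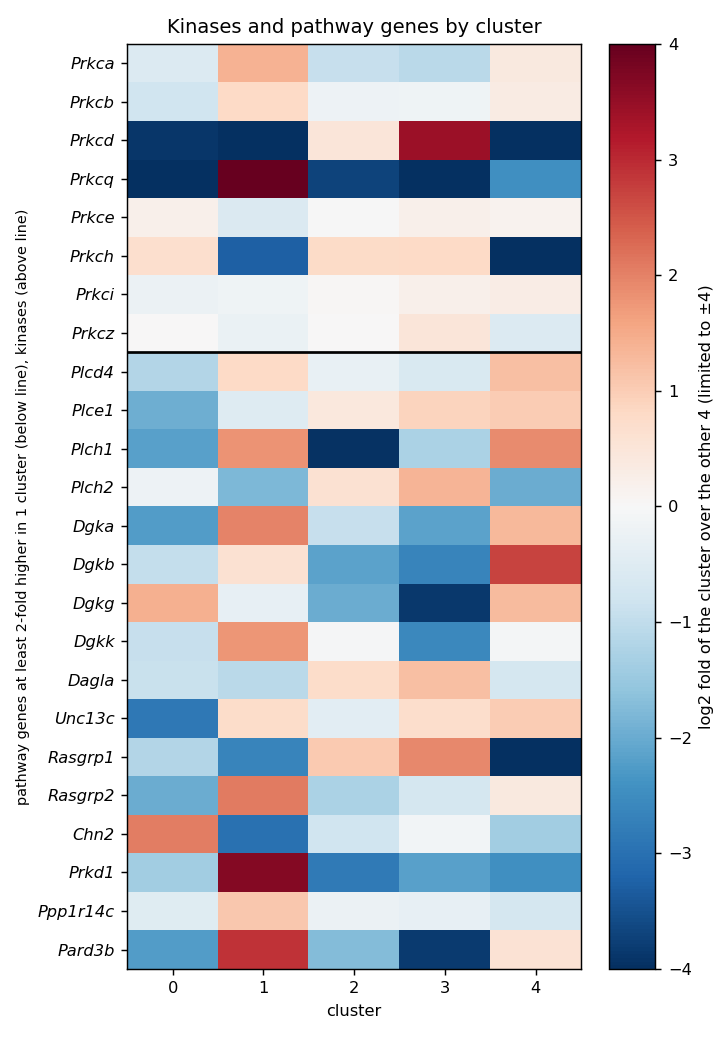
Log2 fold of each cluster over the other 4 for the 8 kinase genes (above the line) and the 16 pathway genes at least 2-fold higher in a cluster (below it), from blue (lower) to red (higher), limited to 4 either way. Dgkb is red in cluster 4, Prkd1 and Pard3b in cluster 1 with Prkcq, and Rasgrp1 in cluster 3 with Prkcd.

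Between libraries few pathway genes differed by 1.5-fold. Past it in mothers over virgin females were 2 higher (Prkd1 and Pard3b) and 1 lower (Marcks) of 59 measured, in virgin males over virgin females 2 higher (Sdcbp and Mlst8) and 1 lower (Marcks) of 55, and in mothers over virgin males 1 higher (Prkd1) of 57. Prkd1 stood at 18.9 CPM in mothers, 8.95 in virgin males and 9.93 in virgin females. Without the nucleus of 19 UMIs mothers stood at 11.9 CPM, under 1.5-fold over both virgin libraries with all their nuclei. With the richest nucleus of each library left out, the ratio of mothers to virgin females was 1.34 [0.766, 2.38]. To virgin males it was then 1.58 [0.841, 3.08], still past 1.5-fold, and both intervals hold 1. Marcks, a main substrate of protein kinase C, stood at 12.3, 8.95 and 19.5 CPM from 105 UMIs. Over all genes 3.83% were higher and 3.66% lower in mothers over virgin females, 2.98% higher and 4.58% lower in virgin males over virgin females, and 4.25% higher and 3.01% lower in mothers over virgin males. The genes named here between libraries were picked after their values were seen.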

How the data were processed

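The authors deposited a table of raw UMI counts (genes by nuclei, 3 libraries together) and a table with each nucleus's library, total counts, class, subtype labels and cluster. Per the submitters' processing notes, Cell Ranger 5.0.1 and GRCm38 (mm10) were used, and per the labels' protocols nuclei were run on 10x Chromium. The sources used here do not give intron counting, strand setting, filters or doublet removal, so levels of different genes are not compared. The tables share no nucleus name and were joined on total UMIs and genes detected, a pair unique for all 603 nuclei. The authors' deposited percent of mitochondrial UMIs, recomputed after the join, matched with a largest difference of 4.66e-15. No doublet caller was run.

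UMIs were summed over neuronal nuclei by cluster, library or both (Python 3.11.15, numpy 2.4.6, scipy 1.17.1, pandas 2.3.3, matplotlib 3.10.9). CPM carry exact Poisson intervals, shares Clopper-Pearson intervals and folds exact conditional binomial intervals, all 95% and treating UMIs as independent molecules. The code was tested on simulated counts. With 1 library per group no test was made, and a gene was counted at 2-fold between clusters or 1.5-fold between libraries with at least 50 UMIs, and a count of 0 was set against 3 UMIs. Nuclei from 3 mice share a library. All 8 members are named whatever their values. Also named are the 3 genes most like each member whose highest cluster is at least 3-fold its lowest, and up to 3 pathway genes a list by fold. Members and lists were chosen with earlier results of these data known. Alternatives were size factors, mean CPM per nucleus, nuclei thinned to 3000 UMIs, equal cluster mix and leaving out nuclei or libraries. No protein sequences were used here.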

Additional observations from a re-analysis of the deposited data

Results flagged for a closer look

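The ratio of Prkcb in mothers over the virgin groups lay on opposite sides of 1 by cluster as measured, and the difference between clusters was not tested. The ratio of mothers over virgin females was 1.48 in cluster 2 and 1.36 in cluster 4, against 0.661 in cluster 1. The ratio of mothers over virgin males was 1.40 in cluster 0 and 1.29 in cluster 3, against 0.686 in cluster 1. The other ratios had intervals that hold 1, at 1.01 in cluster 0 and 1.19 in cluster 3 for mothers over virgin females, and at 1.15 in cluster 2 and 1.12 in cluster 4 for mothers over virgin males. In thinned nuclei the log2 ratios of cluster 1 were −0.06 in place of −0.60 for mothers over virgin females and −0.24 in place of −0.54 for mothers over virgin males. The library of mothers is in all of these ratios.

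Prkca had 285 CPM [178, 431] in the 11 nuclei that the authors annotated as non-neuronal, from 22 UMIs in 8 nuclei, against 56.3 CPM [51.1, 61.9] in neuronal nuclei. The 5 ependymal nuclei gave 18 of the 22 UMIs, with at least 1 in each of the 5. This signal lies outside the neuronal comparison. In the same 11 nuclei Prkce and Prkcd, seen at 422 and 145 CPM in neuronal nuclei, gave no UMI, with an upper bound of 47.8 CPM.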

How the results depend on the processing

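No paired analysis was possible because each group has 1 library, no test was made, and the replicate numbers only name the libraries. The log2 fold of the highest cluster over the other 4 kept its direction in each alternative run for all members but Prkci, at −0.26 in cluster 4 after thinning to 3000 UMIs. Thinning gave 0.91 for Prkca in cluster 1, which is under 2-fold, 3.62 for Prkcd in cluster 3 and 5.01 for Prkcq in cluster 1, and 4 members in place of 3 at least 2-fold higher. The mean of CPM per nucleus gave 3.64 for Prkcd and 5.35 for Prkcq. Leaving out the richest nucleus of each cluster gave 7.32 for Prkcq. Size factors, which shift the log2 folds of all genes by −0.15 in cluster 1, 0.17 in cluster 3 and −0.12 in cluster 4, gave 0.65 for Prkcb in cluster 1 and 0.39 for Prkce in cluster 3. Leaving out each library in turn gave 1.27 to 1.496 for Prkca, 0.58 to 1.09 for Prkcb, 3.25 to 3.55 for Prkcd, 5.67 to 7.05 for Prkcq, 0.071 to 0.31 for Prkce, 0.75 to 0.80 for Prkch, 0.24 to 0.34 for Prkci and 0.42 to 0.57 for Prkcz, with 3 to 4 members and 13 to 16 pathway genes at least 2-fold higher.

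Between libraries, members past 1.5-fold numbered 0 at the same mix of clusters for mothers over virgin females (2 as reported), and in thinned nuclei 1 for virgin males over virgin females (0 as reported) and 2 for mothers over virgin males (1 as reported). The log2 ratio of Prkcd for virgin males over virgin females turned to −0.35 at the same mix. In thinned nuclei that of Prkcd in cluster 3 turned to 0.24 for virgin males over virgin females, and that of Prkce in cluster 3 to 0.10 for mothers over virgin males. Combinations within clusters past 1.5-fold for mothers over virgin females were 3 as reported, 5 without the richest nucleus and 6 thinned, and for virgin males over virgin females 2 as reported and 5 thinned.

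Pathway genes past 1.5-fold were recounted under alternatives chosen after seeing the data. For mothers over virgin females they were 3 as reported, 5 by mean CPM, 5 without the richest 5% of nuclei, 11 thinned and 17 with no minimum on UMIs. For virgin males over virgin females they were 3 as reported, 7 by mean CPM, 5 without the richest 5%, 5 in all nuclei, 8 thinned and 15 with no minimum. For mothers over virgin males they were 1 as reported, 4 by mean CPM, 2 without the richest nucleus, without Ttr nuclei or at the same mix, 12 thinned and 16 with no minimum. Thinning leaves fewer UMIs, and with no minimum genes of few UMIs are counted. Shares over all genes were not recounted under the alternatives, for the pathway genes or for the members above. These counts are thus not set against a background. The cause of the other changes was not tested. Depth limits the within-cluster ratios, some of which rest on little over 50 UMIs, and with 1 library per group no spread between mice is known.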
